A study of Mus musculus with 16 samples.

Results

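The genes described here are 30 genes of the unfolded protein response and of protein folding in the endoplasmic reticulum (ER), out of 30920 genes measured. They were chosen by name and by role. They comprise 4 sensors and transcription factors, 14 chaperones and folding enzymes, 10 genes of ER-associated degradation and 2 genes of the translocon, and each had 1 main row in the array table. The cells came from the spleens of male C54BL/6 WT mice aged 8 weeks, as the labels spell the strain, and are labelled CD4 T cells after 3 days of culture. The 4 groups were cells under Th0 conditions (Th0), under Th17 conditions (Th17), and under Th17 conditions with 20 µM ezetimibe (Eze) or 20 µM rosuvastatin (Rsv). Each group had 4 arrays, 3 with a numbered title and 1 without a number. The methods describe stimulation through CD3 and CD28, with TGF-β, IL-6 and antibodies to IFN-γ and IL-4 for Th17 conditions. Ezetimibe blocks cholesterol uptake through NPC1L1, and rosuvastatin inhibits HMG-CoA reductase, the rate-limiting enzyme of cholesterol synthesis. The study's text speaks of splenocytes treated for a shorter time in one place and of isolated T cells in another, so the length of treatment and the purity of the cultures are not settled here. Its flow cytometry methods name wild-type BALB/c mice as the source of spleen cells studied in vitro, so the strain is not settled either. The study also calls the Th0 group naïve T cells, so whether that group was stimulated is not settled here.

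The unfolded protein response adjusts the folding capacity of the ER to the load of new secretory and membrane proteins. 3 membrane proteins sense the load. IRE1α, the product of Ern1, splices the mRNA of the transcription factor Xbp1, while ATF6 is cut in the Golgi and travels to the nucleus. PERK, the product of Eif2ak3, phosphorylates eIF2α, which lowers general translation and favours that of ATF4. ATF6 and spliced XBP1 raise chaperone and degradation genes, many of them through a promoter motif called the ER stress response element (ERSE). In lymphocytes this response is best known for the expansion of the ER in plasma cells, and it also operates in activated T cells. A gene array does not separate spliced from unspliced Xbp1 and does not measure the cleavage of ATF6 or the phosphorylation of PERK.

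Promoters of 25 of the 30 genes were matched by symbol in RefSeq (GRCm38.p6), each running from 250 bases before the annotated start to 50 bases after it. Hyou1, Atf6, Derl1, Manf and Sec61a1 were not matched. Both strands were searched. The ERSE, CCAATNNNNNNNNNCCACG, was found in 9 of the 25 promoters, against 37 of 27025 genes with a promoter, or 0.137%. By role, 7 of 12 chaperone and folding genes, 2 of 9 degradation genes and 0 of 3 sensors held it. The related ERSE-II, which reads ATTGG, any 1 base and then CCACG, was found in Herpud1 and Dnajb11, against 0.0444% of all genes. In Dnajb11 the match lay at bases 7 to 17 after the start. The letters CCACG, which is part of both motifs, was in 21 of the 25 promoters against 35.5% of all genes. The UPRE letters TGACGTGG were in 0 of 25 against 0.714%. The composite ATF4 letters TGATGNAA were in Herpud1 against 4.51%. A match is a description of letters and not of binding. The matches upstream of the start are printed below, whether or not the gene differed between the groups. Each line runs 5′ to 3′ in the direction of the gene. Capitals mark the fixed letters of the motif, which read CGTGG then ATTGG where the ERSE lies on the opposite strand.
Hspa5, chr2:34772017-34772051, plus strand: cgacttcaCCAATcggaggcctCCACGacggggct
Hsp90b1, chr10:86705525-86705664, minus strand: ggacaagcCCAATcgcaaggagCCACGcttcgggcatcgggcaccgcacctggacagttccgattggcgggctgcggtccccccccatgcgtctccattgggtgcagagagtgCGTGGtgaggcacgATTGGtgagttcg
Calr, chr8:84847067-84847101, minus strand: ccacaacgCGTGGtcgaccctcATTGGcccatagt
Canx, chr11:50325792-50325826, minus strand: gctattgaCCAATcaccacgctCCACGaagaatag
Pdia6, chr12:17266483-17266517, plus strand: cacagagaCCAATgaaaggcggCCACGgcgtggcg
Dnajc3, chr14:118937819-118937853, plus strand: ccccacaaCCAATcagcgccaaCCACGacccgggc
Creld2, chr15:88819512-88819546, plus strand: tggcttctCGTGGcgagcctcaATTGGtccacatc
Syvn1, chr19:6046524-6046558, plus strand: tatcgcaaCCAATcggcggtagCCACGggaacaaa
Derl3, chr10:75893234-75893268, plus strand: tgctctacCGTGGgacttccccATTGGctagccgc
Herpud1 (ERSE-II), chr8:94386369-94386395, plus strand: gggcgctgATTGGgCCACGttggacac

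The Hspa5 motif covered bases -65 to -47 from the start, and that of Syvn1 was the nearest to the start, at -44 to -26. Hsp90b1 held 2 matches, one on each strand, at -212 to -194 and at -107 to -89. Those of Calr and Derl3 lay at -162 to -144 and -156 to -138. The ERSE-II of Herpud1 lay at -52 to -42, and its composite ATF4 letters at -112 to -105. Pdia4, Sdf2l1 and Sel1l, which are among the genes with large differences below, held CCACG but neither the ERSE nor the ERSE-II in this window.

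**Figure D1:**
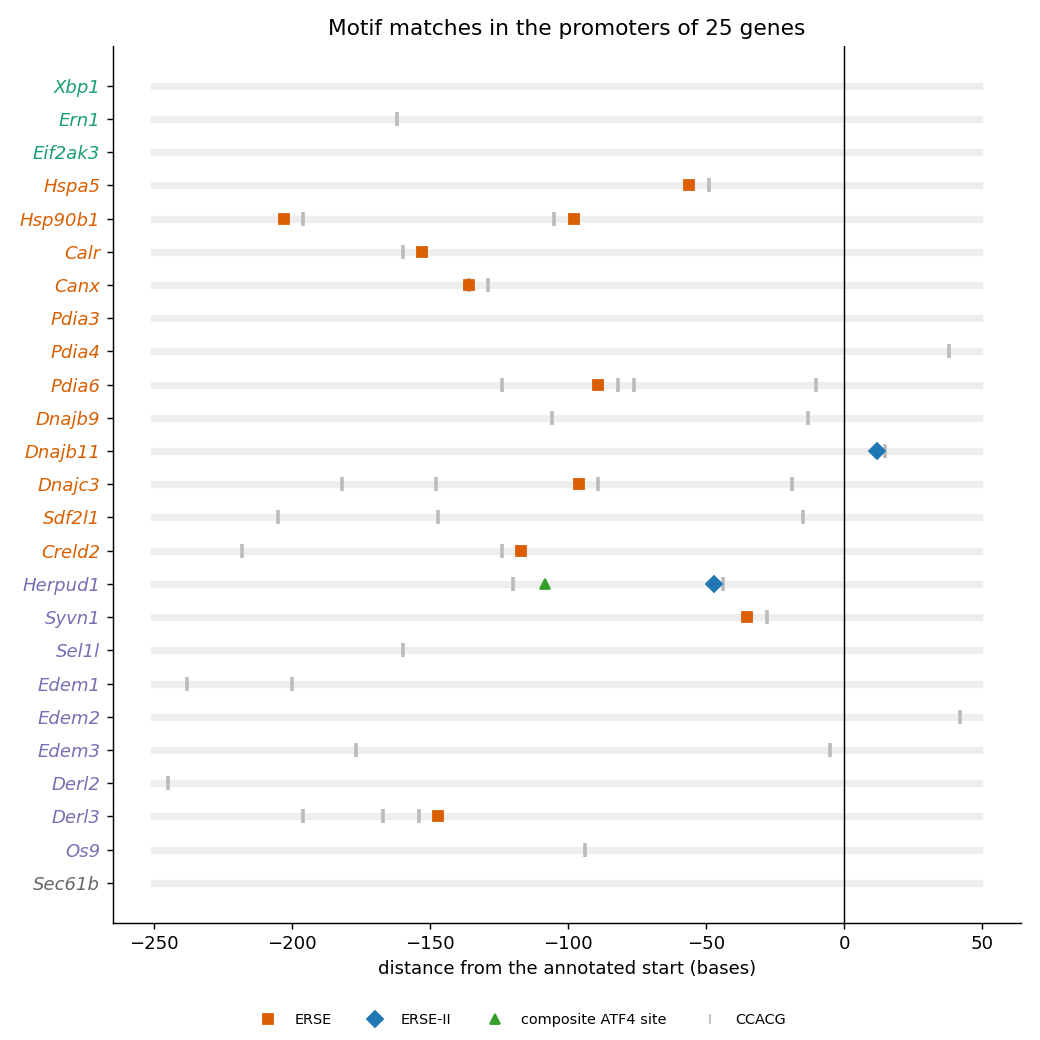
Positions of motif matches in the promoters of 25 of the 30 genes, plotted as the distance of the middle of each match from the annotated start, in bases. Squares mark the ERSE (9 genes, with 2 matches in Hsp90b1), diamonds the ERSE-II, the triangle the composite ATF4 letters of Herpud1 and grey ticks CCACG. Gene names are coloured by role, with chaperones in orange.

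Expression is given as the deposited log2 signal, and every difference is a log2 difference between group means with its standard error (SE) from a limma fit over all 30920 genes. A gene was called higher or lower where its p-value, adjusted by the Benjamini-Hochberg method over those genes, was under 0.05. Correlations between arrays were 0.9852 to 0.9944 within groups and 0.9680 to 0.9821 between groups. Markers of CD4 T cells were above background in all 4 groups, for 8 of 8 genes. The labels do not say whether the arrays of a group came from separate mice or cultures, so a p-value here reflects the spread among those arrays alone, which may be technical. The numbered and the unnumbered arrays also carry 2 different leading codes in the array names, and 1 of the 30 genes differed between these sets, against 120 of all genes, or 0.388%. As a bound for weak signals, the 95th percentile of 23 antigenomic control rows was 6.78. Of the 30 genes, 17 exceeded it in all 4 groups, 5 in some groups and 8 in none. The 5 were Dnajb11, Sdf2l1 and Creld2, below it in Th17 alone, Pdia4, above it in Eze alone, and Edem3, below it in Eze and Rsv. The 8 were Ern1, Eif2ak3, Dnajb9, Manf, Syvn1, Derl2, Derl3 and Sec61b, and their differences are those of dim signals. Th0 and Th17 arrays enter more than one comparison each, so the comparisons are not independent.

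Across the 4 groups, Th17 had the lowest mean for 21 of the 30 genes. Th0 had the highest mean for 10, Rsv for 9, Eze for 7 and Th17 for 4. The same ordering was not counted over all genes, so these counts have no share to be set beside. The median over the genes of the deviation from the mean of all 16 arrays ran from 0.11 to 0.18 in Th0 arrays and from -0.33 to -0.15 in Th17 arrays. It ran from 0.02 to 0.12 in Eze arrays and from -0.04 to 0.08 in Rsv arrays. Th17 arrays therefore did not overlap those of the other groups in this measure, and Eze and Rsv arrays overlapped each other.

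**Figure D2:**
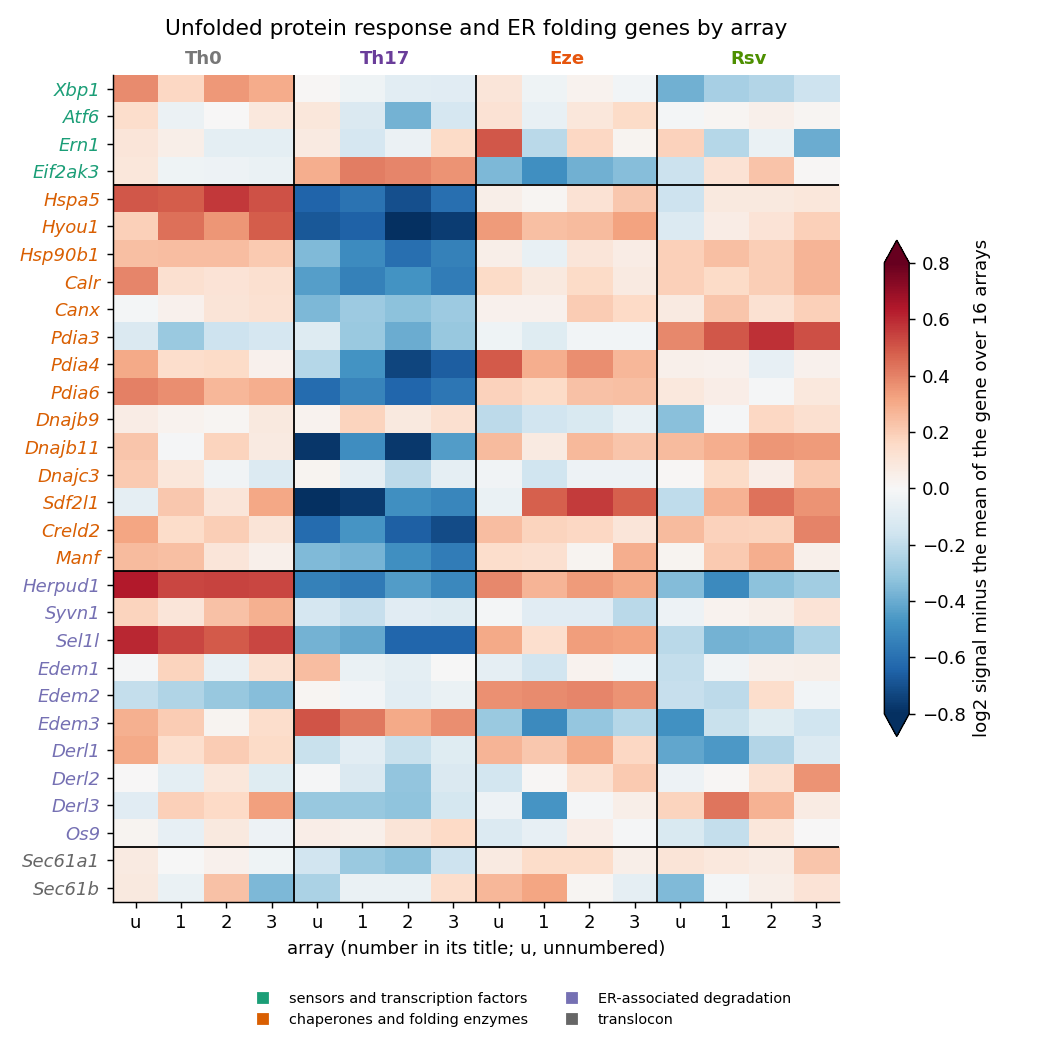
Log2 signal of the 30 genes in each of the 16 arrays, minus the mean of the gene over all arrays, with colours from -0.8 to 0.8. Columns are arrays by group (u, unnumbered title) and rows are genes by role. Most of the chaperone block, apart from Pdia3, Dnajb9 and Dnajc3, is low in the Th17 arrays, while Herpud1 and Sel1l are low in Th17 and Rsv arrays alike.

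The first comparison asked how the genes differed between Th17 and Th0 conditions. Of the 30 genes, 18 were lower in Th17 (7.29% of all genes were lower) and 1 was higher (8.5% of all genes were higher). The median difference was -0.34, against -0.03 over all genes. The chaperones and folding enzymes made up most of this, with 11 of 14 lower, 0 higher and a median of -0.72. Of the 10 degradation genes 5 were lower, and of the 4 sensors 1 was lower and 1 higher.

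The second comparison was Eze against Th17, cells with and without ezetimibe under the same conditions. Here 17 of the 30 genes were higher (11.2% of all genes) and 2 were lower (10.5% of all genes), with a median of 0.36 against -0.04 over all genes. Again chaperones and folding enzymes led, with 12 of 14 higher and a median of 0.68. Of the degradation genes 4 were higher and 1 lower. The third comparison, Rsv against Th17, gave 14 genes higher (13.6% of all genes) and 3 lower (12.4% of all genes), with a median of 0.23 against 0.06. The chaperone count was 12 of 14 higher, with a median of 0.68. Of the 10 degradation genes 1 was higher and 1 lower.

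The fourth comparison set the drugs against each other at the same dose of 20 µM. In Eze against Rsv, 6 of the 30 genes were higher (13.3% of all genes) and 3 were lower (15.2% of all genes). The median was -0.01 against -0.08 over all genes. Among the chaperones 1 of 14 was higher and 1 lower. Among the degradation genes 4 of 10 were higher and 1 lower. Centring each array on its median moved every difference in this comparison by 0.16, and the calls were then 9 higher and 2 lower, with a median of 0.15.

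Against Th0, 1 of the 30 genes was higher in Eze (11.7% of all genes) and 7 were lower (10.9% of all genes), with a median of -0.06 against -0.07 over all genes. Centring of the arrays moved these differences by 0.10 and left 1 gene higher and 3 lower. In Rsv, 1 gene was higher than in Th0 (13.4% of all genes) and 8 were lower (12.8% of all genes), with a median of -0.03 against 0.03. For the 14 chaperones the counts were 0 higher and 1 lower in Eze, and 1 higher and 3 lower in Rsv.

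**Figure D3:**
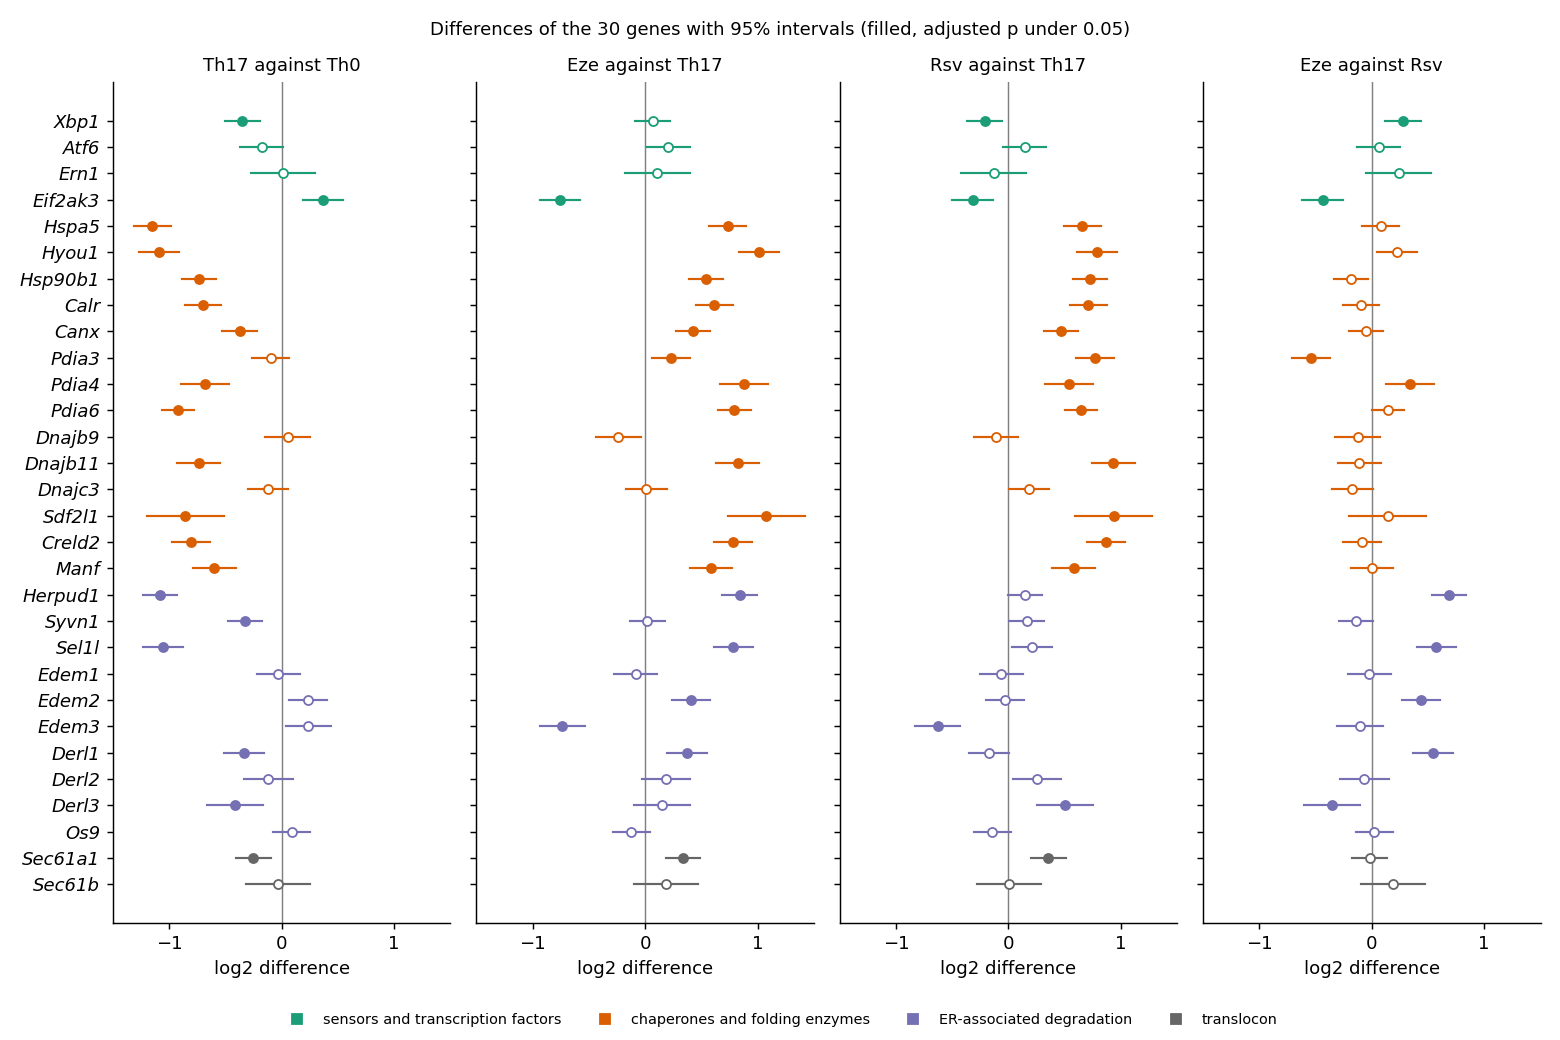
Log2 differences of the 30 genes in 4 comparisons, with 95% intervals from the limma fit (n = 4 arrays per group). Filled points passed an adjusted p of 0.05, and colours give the role. Of the 14 chaperones, 11 are filled to the left of 0 in Th17 against Th0 and 12 to the right in Eze and in Rsv against Th17, while 4 degradation genes lie to the right in Eze against Rsv.

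Of the sensors and transcription factors, Xbp1 encodes the transcription factor that IRE1α activates. In the order unnumbered array, then arrays 1 to 3, which is kept below, its log2 signal was 8.96, 8.75, 8.93 and 8.88 in Th0 and 8.59, 8.55, 8.50 and 8.49 in Th17. It was 8.68, 8.55, 8.61 and 8.56 in Eze and 8.20, 8.32, 8.35 and 8.42 in Rsv. All Th0 arrays were above those of the other groups, all Rsv arrays were below them, and Th17 and Eze overlapped. Xbp1 fell by 0.35 (SE 0.07) in Th17 against Th0 (adjusted p = 0.00271) and by 0.56 in Rsv against Th0 (adjusted p = 1.35e-05). Eze and Th17 differed by 0.07 (95% interval -0.09 to 0.23, adjusted p = 0.633). Eze was 0.28 above Rsv (adjusted p = 0.00998). Rsv was 0.21 below Th17 (adjusted p = 0.0461), a call that was lost in most fits that left out a single array.

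Eif2ak3 encodes PERK and went the other way. Its signal, below the background bound in every group mean, was 6.42, 6.30, 6.29 and 6.28 in Th0 and 6.62, 6.74, 6.72 and 6.69 in Th17. It was 5.97, 5.84, 5.95 and 5.99 in Eze and 6.16, 6.45, 6.56 and 6.34 in Rsv. Th17 arrays were the highest and Eze arrays the lowest, with no overlap with any other group. Eif2ak3 was 0.37 (SE 0.09) higher in Th17 than in Th0 (adjusted p = 0.00458). Against Th17 it fell by 0.76 in Eze (adjusted p = 2.07e-06) and by 0.32 in Rsv (adjusted p = 0.00881). The difference between the drugs was -0.44 (adjusted p = 0.000828).

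Atf6, the sensor that becomes a transcription factor, was called in none of the 6 comparisons. Its signal was 7.71, 7.52, 7.57 and 7.65 in Th0 and 7.66, 7.45, 7.19 and 7.43 in Th17. It was 7.68, 7.51, 7.66 and 7.72 in Eze and 7.55, 7.58, 7.61 and 7.58 in Rsv, so that all groups overlapped. Ern1, which encodes IRE1α and was dim, was also not called, with 6.03, 5.98, 5.86 and 5.86 in Th0 and 6.01, 5.80, 5.89 and 6.09 in Th17. It was 6.43, 5.72, 6.10 and 5.96 in Eze and 6.12, 5.71, 5.88 and 5.54 in Rsv. The smallest adjusted p of these genes was 0.129 for Atf6 and 0.2 for Ern1. That of Atf6 was for Eze against Th17 (0.21 higher), which passed with the background filter (adjusted p = 0.0275). It also passed without the unnumbered Th17 array (adjusted p = 0.0287). Ern1 was 0.24 higher in Eze than in Rsv with an interval of -0.05 to 0.53, and this difference passed once arrays were centred on their medians (0.40, adjusted p = 0.0227).

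Hspa5 encodes BiP, the main Hsp70 chaperone of the ER, which also holds the sensors inactive. Its signal was 8.63, 8.62, 8.70 and 8.64 in Th0 and 7.49, 7.54, 7.43 and 7.53 in Th17. It was 8.18, 8.15, 8.25 and 8.35 in Eze and 7.97, 8.21, 8.21 and 8.22 in Rsv. The drug arrays lay between those of Th0 and Th17 and overlapped each other. Hspa5 fell by 1.15 (SE 0.08) in Th17 against Th0, which is 2.22-fold (adjusted p = 3.93e-09). It was 0.73 higher in Eze than in Th17 (adjusted p = 9.2e-07) and 0.66 higher in Rsv (adjusted p = 3.51e-06). Both drug groups remained below Th0, at -0.41 for Eze (adjusted p = 0.000586) and -0.49 for Rsv (adjusted p = 7.28e-05).

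Hyou1, an Hsp110-type chaperone that works as an exchange factor for BiP, had a like order. Its signal was 7.87, 8.12, 8.03 and 8.16 in Th0 and 7.00, 7.03, 6.88 and 6.92 in Th17. It was 8.02, 7.92, 7.93 and 8.00 in Eze and 7.57, 7.74, 7.79 and 7.87 in Rsv. All Th17 arrays were below those of the other groups, and Eze arrays overlapped Th0 arrays. Hyou1 fell by 1.09 (SE 0.08) in Th17 against Th0 (adjusted p = 2.59e-08). It was 1.01 higher in Eze than in Th17 (adjusted p = 5.72e-08) and 0.79 higher in Rsv (adjusted p = 1.17e-06). Eze and Rsv differed by 0.23 with an interval of 0.05 to 0.40, which did not pass after adjustment (adjusted p = 0.0535) but did with each array centred on its median (0.38, adjusted p = 0.00718).

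Sdf2l1, Dnajb11 and Creld2 had the largest rises in Rsv against Th17, and Sdf2l1 also had the largest in Eze against Th17. Their Th17 means were below the background bound. Sdf2l1 encodes a partner of the BiP co-chaperone complexes, and its signal was 7.17, 7.46, 7.34 and 7.55 in Th0 and 6.16, 6.48, 6.75 and 6.72 in Th17. It was 7.19, 7.72, 7.80 and 7.72 in Eze and 7.04, 7.52, 7.68 and 7.60 in Rsv. In each group the unnumbered array was the lowest, and Th17 did not overlap the other groups. Sdf2l1 fell by 0.85 (SE 0.16) in Th17 against Th0 and was higher than in Th17 by 1.08 in Eze (adjusted p = 5.93e-05) and by 0.94 in Rsv (adjusted p = 0.000248).

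Dnajb11 encodes ERdj3, a J-domain co-chaperone of BiP. Its signal was 7.22, 6.99, 7.18 and 7.07 in Th0 and 6.22, 6.50, 6.23 and 6.55 in Th17. It was 7.25, 7.07, 7.26 and 7.22 in Eze and 7.25, 7.29, 7.35 and 7.34 in Rsv, again with Th17 below all others. The difference from Th17 was 0.82 in Eze (SE 0.09, adjusted p = 1.48e-06) and 0.93 in Rsv (adjusted p = 3.19e-07). Creld2, an ER stress-inducible protein with disulfide isomerase activity, measured 7.54, 7.37, 7.42 and 7.33 in Th0 and 6.61, 6.75, 6.57 and 6.51 in Th17. It measured 7.47, 7.40, 7.39 and 7.32 in Eze and 7.48, 7.41, 7.40 and 7.62 in Rsv. The 3 groups other than Th17 overlapped. Creld2 was 0.78 higher in Eze (SE 0.08, adjusted p = 7.43e-07) and 0.87 higher in Rsv than in Th17 (adjusted p = 1.99e-07).

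Pdia3 and Pdia4, genes of the protein disulfide isomerase family, were the 2 chaperone genes called between the drugs. Pdia3 encodes ERp57, which works on glycoproteins with calnexin and calreticulin, and its signal was 8.999, 8.82, 8.95 and 8.98 in Th0 and 9.01, 8.82, 8.72 and 8.81 in Th17. It was 9.08, 9.02, 9.09 and 9.09 in Eze and 9.50, 9.61, 9.70 and 9.63 in Rsv. The Rsv arrays were far above the rest, and Th0 and Th17 overlapped. Pdia3 was 0.77 (SE 0.08) higher in Rsv than in Th17 (adjusted p = 6.66e-07) and 0.67 higher than in Th0 (adjusted p = 2.87e-06). It was 0.23 higher in Eze than in Th17, close to the threshold (adjusted p = 0.0437). This call was lost with the replicate block (adjusted p = 0.0606) and with only the compared groups fitted (adjusted p = 0.0703). It was also lost in most fits that left out a single array, with an adjusted p of up to 0.136. The difference between the drugs was -0.54 (adjusted p = 5.42e-05).

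Pdia4, which encodes ERp72, was also lowest in Th17 but had the drugs in the reverse order. It measured 6.76, 6.60, 6.61 and 6.49 in Th0 and 6.23, 5.98, 5.72 and 5.80 in Th17. It measured 6.95, 6.75, 6.83 and 6.72 in Eze and 6.50, 6.49, 6.39 and 6.49 in Rsv. The Eze arrays were above the Rsv arrays, and only the Eze mean was above the background bound. Pdia4 was 0.88 (SE 0.10) higher in Eze than in Th17 (adjusted p = 2.72e-06) and 0.54 higher in Rsv (adjusted p = 0.000541), with a difference between the drugs of 0.34 (adjusted p = 0.0166) that did not pass without the unnumbered Eze array (adjusted p = 0.0547). Pdia6, which encodes P5, fell by 0.92 in Th17 against Th0. It was 0.80 and 0.65 higher than in Th17 with ezetimibe and rosuvastatin. Between the drugs it differed by 0.15 (adjusted p = 0.112), which passed with centred arrays (0.30, adjusted p = 0.00608), with a mean-variance trend (adjusted p = 0.0343) and with the background filter (adjusted p = 0.0204).

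The remaining chaperones followed the main pattern or did not pass. Hsp90b1, the ER Hsp90 GRP94, fell by 0.74 in Th17 against Th0 and was 0.54 higher in Eze and 0.72 higher in Rsv than in Th17. The lectin chaperones Calr and Canx fell by 0.70 and 0.37 in Th17. Calr was 0.61 and 0.71 higher than in Th17 with ezetimibe and rosuvastatin, and Canx was 0.42 and 0.47 higher. Manf, a secreted ER stress protein with a dim signal, fell by 0.60 in Th17 and was 0.58 higher with either drug. Dnajb9 (ERdj4) and Dnajc3 (P58IPK), both J-domain co-chaperones, were called in none of the 6 comparisons, with differences of -0.24 to 0.19. Dnajb9, 0.24 lower in Eze than in Th17, passed with array weights (adjusted p = 0.0392) and with only the compared groups fitted (adjusted p = 0.0456). Dnajc3 passed in Rsv against Th17 with the background filter (adjusted p = 0.03). For the 12 chaperones not called between the drugs, the differences ran from -0.18 for Hsp90b1 to 0.23 for Hyou1. That of Hspa5 was 0.08 with an interval of -0.08 to 0.24.

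**Figure D4:**
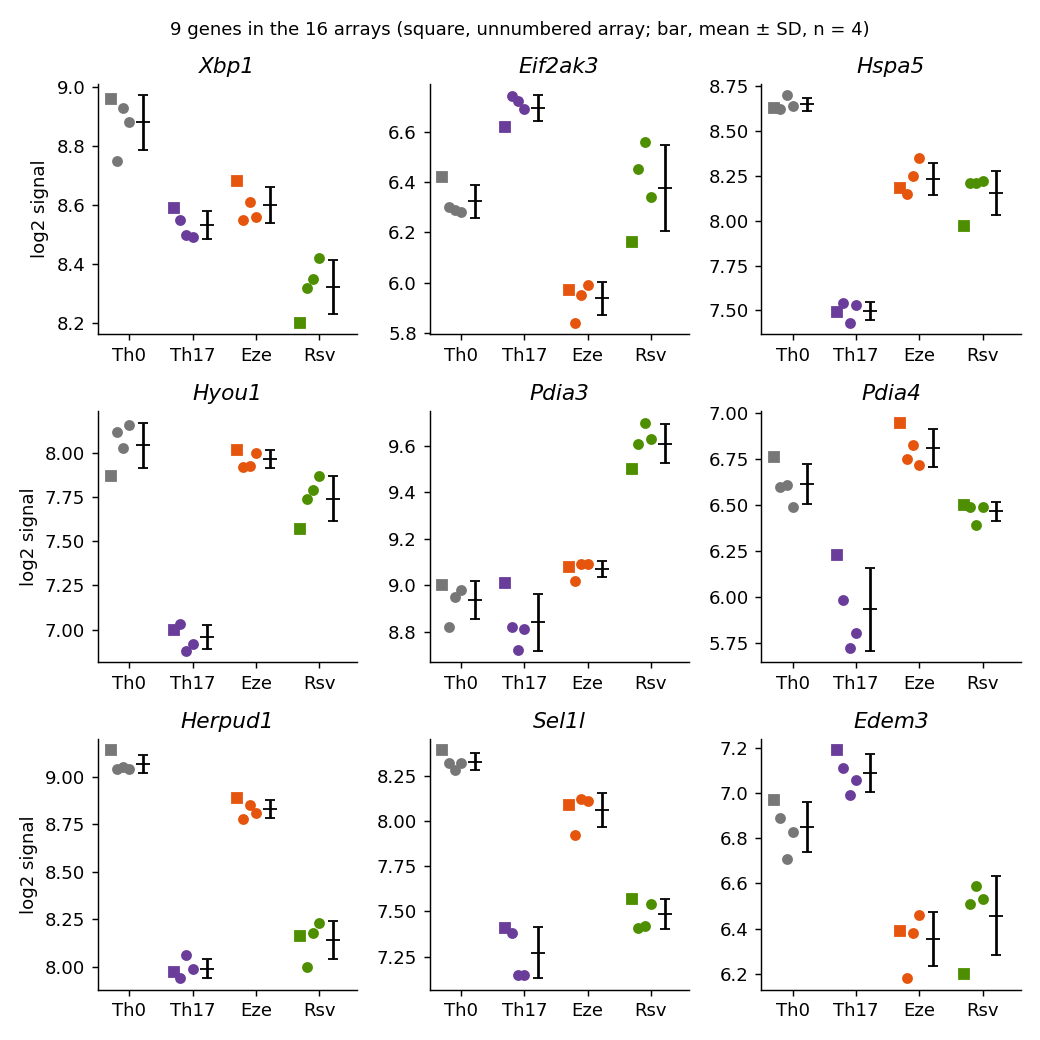
Log2 signal of 9 genes in the 16 arrays by group, with squares for the unnumbered array, circles for the numbered arrays and bars for the mean ± SD (n = 4). Each panel has its own axis, which does not start at 0. Hspa5 and Hyou1 are lowest in Th17, Pdia3 is highest in Rsv, and Herpud1 and Sel1l are high in Th0 and Eze and low in Th17 and Rsv.

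ER-associated degradation draws misfolded proteins out of the ER for destruction by the proteasome. Of its 10 genes, Herpud1, Sel1l, Edem2 and Derl1 were higher in Eze than in Rsv, 1 was lower and 5 were not called, with a median of 0.00. Herpud1 encodes a stress-inducible organiser of the degradation complex. Its signal was 9.14, 9.04, 9.05 and 9.04 in Th0 and 7.97, 7.94, 8.06 and 7.99 in Th17. It was 8.89, 8.78, 8.85 and 8.81 in Eze and 8.16, 8.00, 8.18 and 8.23 in Rsv. The Eze arrays lay close under the Th0 arrays, and the Rsv arrays overlapped the Th17 arrays. Herpud1 fell by 1.08 (SE 0.07) in Th17 against Th0 (adjusted p = 3.73e-09). It was 0.84 higher in Eze than in Th17 (adjusted p = 8.25e-08), whereas Rsv differed from Th17 by 0.15 (95% interval -0.001 to 0.303, adjusted p = 0.14). The difference between Eze and Rsv was 0.69 (adjusted p = 1.13e-06), or 1.61-fold.

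Sel1l, the adaptor of the ubiquitin ligase that Syvn1 encodes, behaved alike. Its signal was 8.39, 8.32, 8.28 and 8.32 in Th0 and 7.41, 7.38, 7.15 and 7.15 in Th17. It was 8.09, 7.92, 8.12 and 8.11 in Eze and 7.57, 7.41, 7.42 and 7.54 in Rsv. Eze and Rsv arrays did not overlap, and the lowest Rsv array was level with the highest Th17 array to 2 decimals. Sel1l fell by 1.05 (SE 0.08) in Th17 against Th0 (adjusted p = 3.6e-08). It was 0.79 higher in Eze than in Th17 (adjusted p = 1.09e-06) and 0.57 higher in Eze than in Rsv (adjusted p = 5.12e-05). Rsv against Th17 was 0.21 (adjusted p = 0.0731), a difference that passed when a mean-variance trend was fitted (adjusted p = 0.033).

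Derl1, part of the channel through which substrates leave the ER, was lowest in Rsv. Its signal was 8.76, 8.59, 8.66 and 8.61 in Th0 and 8.28, 8.37, 8.28 and 8.36 in Th17. It was 8.73, 8.67, 8.76 and 8.62 in Eze and 8.04, 8.00, 8.22 and 8.35 in Rsv. Eze overlapped Th0, and Rsv overlapped Th17. Derl1 was 0.37 (SE 0.08) higher in Eze than in Th17 (adjusted p = 0.00255) and 0.54 higher in Eze than in Rsv (adjusted p = 8.96e-05). The call for Th17 against Th0, a fall of 0.34 (adjusted p = 0.00844), was lost with each array centred on its median (adjusted p = 0.0512).

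The EDEM proteins recognise or trim mannose on misfolded glycoproteins, and their genes differed from each other. Edem2 ran from 7.22 to 7.37 over the Th0 arrays and from 7.48 to 7.58 over the Th17 arrays. With ezetimibe it ran from 7.92 to 7.95, and with rosuvastatin from 7.35 to 7.70. Edem2 was 0.41 higher in Eze than in Th17 and 0.64 higher than in Th0, the 1 call above Th0 in Eze (adjusted p = 9.62e-06). Edem3 ran from 6.71 to 6.97 over the Th0 arrays and from 6.99 to 7.19 over the Th17 arrays. With ezetimibe it ran from 6.18 to 6.46, and with rosuvastatin from 6.20 to 6.59. Edem3 fell by 0.73 in Eze against Th17 (adjusted p = 1.11e-05) and by 0.63 in Rsv (adjusted p = 6.01e-05), against the direction of most other genes here. Edem1, Derl2 and the lectin gene Os9 were called in none of the 6 comparisons. Derl2 passed in Rsv against Th17 with the numbered arrays alone (adjusted p = 0.0366).

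Syvn1, which encodes the ubiquitin ligase HRD1, fell by 0.33 in Th17 against Th0 (adjusted p = 0.00365) and was 0.02 from Th17 in Eze (adjusted p = 0.889). Derl3, a relative of Derl1, was dim, with arrays between 3.31 and 4.21. It fell by 0.41 in Th17 against Th0 and was 0.50 higher in Rsv than in Th17 (adjusted p = 0.00343). The fall in Th17 did not pass in most fits that left out a single array, with an adjusted p of up to 0.0757. In the translocon, the channel through which new proteins enter the ER, Sec61a1 fell by 0.25 in Th17 against Th0 and was higher than in Th17 by 0.34 in Eze and 0.35 in Rsv. Its fall in Th17 did not pass with centred arrays (adjusted p = 0.116) or with only the compared groups fitted (adjusted p = 0.0594). The dim Sec61b was called in none of the comparisons.

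The ERSE matches can be set beside these values. Of the 9 genes with an ERSE, 8 were lower in Th17 than in Th0, with a median of -0.70, and 6 were higher in Eze and 7 in Rsv than in Th17, with medians of 0.54 and 0.65. Of the 16 genes with a promoter and no ERSE, 6 fell and 1 rose from Th0 to Th17, with a median of -0.06. In that group 7 rose and 2 fell in Eze relative to Th17, with a median of 0.19. In Rsv 4 rose and 3 fell, with a median of -0.015. The split by motif was also one by role, since 7 of the 9 genes with an ERSE were chaperone or folding genes. Of such genes with a promoter and no ERSE, Pdia4, Sdf2l1 and Dnajb11 (ERSE-II) fell from Th0 to Th17 and rose with either drug. Pdia3 rose with either drug but was not called from Th0 to Th17, and Dnajb9 was not called. Whether the motif matters apart from role was not tested. Dnajc3 carried an ERSE and was not called in any comparison. The other 28 genes with an ERSE are not among the 30, and 23 of them were in the array table, 2 of which, Alg12 and Ero1lb, are in the ER lists below. Among these 23, 1 rose and 3 fell from Th0 to Th17, with a median of -0.11, and 1 rose and 1 fell in Eze relative to Th17, with a median of 0.00. For so few genes, these counts were not far from the shares over all genes. The gene that rose in Eze was Alg12, a mannosyltransferase of N-glycosylation, which was 0.49 higher than in Th17 (adjusted p = 0.000706).

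Other genes of the pathway were taken from lists. Over all genes, 8.5% were higher and 7.29% lower in Th17 against Th0, and 11.2% and 10.5% in Eze against Th17. The shares were 13.6% and 12.4% in Rsv against Th17, and 13.3% and 15.2% in Eze against Rsv. In a list of 16 genes of the PERK arm and the integrated stress response, 13 fell and 0 rose from Th0 to Th17, with a median of -0.93. Asns, asparagine synthetase and an ATF4 target, had means of 8.80 in Th0, 7.40 in Th17, 9.30 in Eze and 7.57 in Rsv. Chac1 and Sesn2, also targets of ATF4, were 1.60 and 1.61 higher in Eze than in Th17 (adjusted p = 9.06e-10 and 3.83e-10). In Eze against Th17, 10 of the 16 were higher and 2 lower, with a median of 0.54. In Rsv against Th17, 2 were higher and 5 lower, with a median of -0.08. Between the drugs, 13 of the 16 were higher in Eze than in Rsv and 2 were lower, with a median of 0.81. Whether PERK had a part in these differences was not tested. Nupr1, a stress-induced chromatin protein, was 1.62 higher in Eze than in Rsv (SE 0.08, adjusted p = 1.42e-10).

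In a list of 16 genes of N-glycosylation and glycoprotein folding, 7 fell and 3 rose from Th0 to Th17. In this list 10 rose and 0 fell in Eze relative to Th17, with a median of 0.34, and 5 were higher and 2 lower in Rsv, with a median of 0.21. Rpn1, a subunit of oligosaccharyltransferase, fell by 0.68 in Th17 against Th0 and was 0.95 higher in Eze and 0.69 higher in Rsv than in Th17. In the list of other translocon, signal peptidase and SRP receptor genes, 4 of 16 were higher and 0 lower in Eze relative to Th17, with a median of 0.11. In Rsv 3 were higher and 2 lower, with a median of 0.03. Ssr2, a subunit of the translocon-associated protein complex, was 0.50 higher in Eze and 0.48 higher in Rsv than in Th17.

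**Figure D5:**
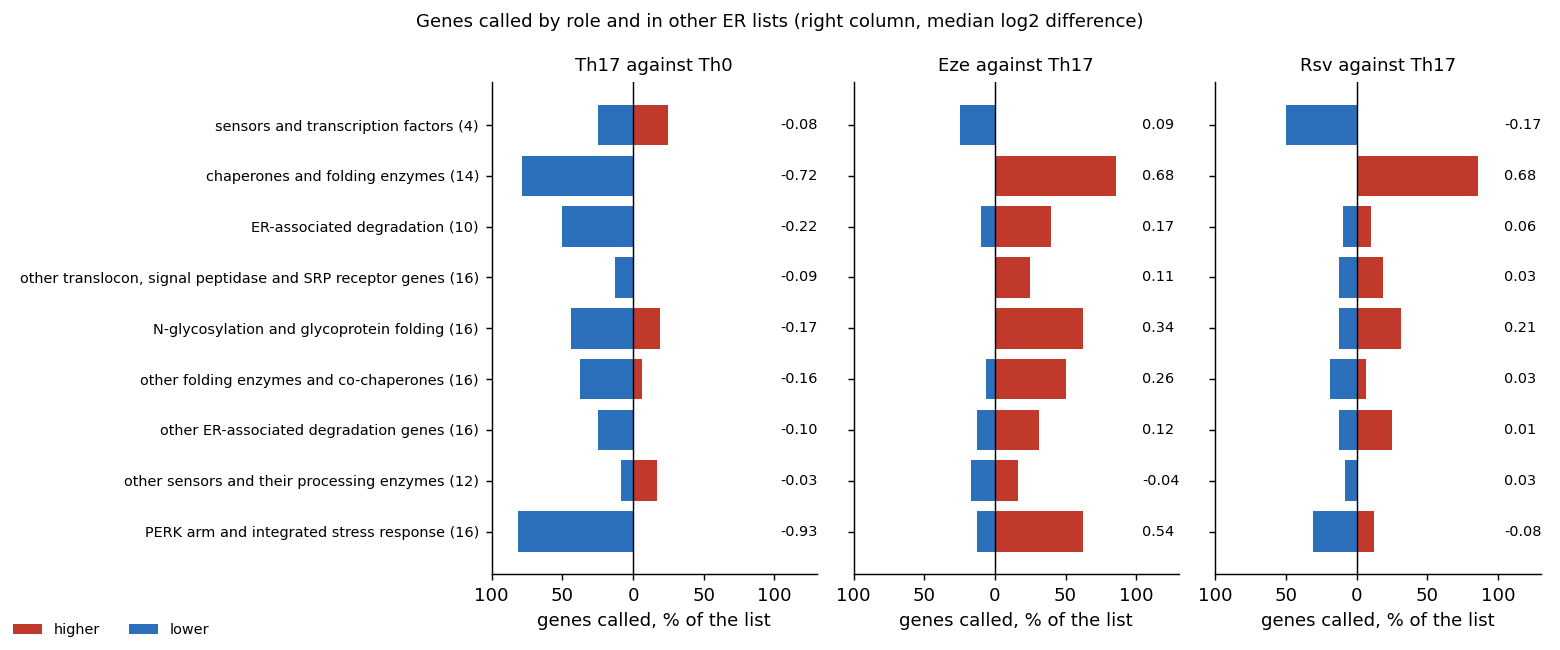
Share of genes called higher (red, to the right) or lower (blue, to the left) in the classes of the 30 genes and in other ER lists, in percent of the list, for 3 comparisons. The number of genes is in parentheses and the column at the right of each panel gives the median log2 difference. The list of the PERK arm and the integrated stress response had a median of 0.54 in Eze against Th17, where the chaperones had 0.68. In Rsv against Th17 its median was -0.08 and theirs was 0.68.

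These are bulk samples, in which fewer cells of a type and less RNA per cell cannot be told apart. The shares of all genes called in each comparison, given above, also stand beside the marker counts that follow. Markers of B cells moved with the chaperones in part. Of 10 such markers, 9 were lower in Th17 than in Th0 (median -1.75), 8 were higher in Eze than in Th17 (median 0.68), while with rosuvastatin 3 rose and 1 fell (median 0.20). Summed on a linear scale, their signal was 1029 to 1090 over the Th0 arrays and 287 to 314 over the Th17 arrays. It was 428 to 463 with ezetimibe and 286 to 340 with rosuvastatin. In Th0, 4 of the 10 were above the background bound, and in the other groups 0 were. Of 9 plasma cell markers, 3 rose and 3 fell from Th0 to Th17, and 0 rose and 5 fell in Eze relative to Th17. Their sums were 2224 to 2342 over the Th0 arrays and 1936 to 2099 over the Th17 arrays. They were 1626 to 1830 with ezetimibe and 1323 to 1415 with rosuvastatin. Of these 9 markers, 4 were above the bound in Th0, 2 in Th17, 3 in Eze and 3 in Rsv. Jchain and Tnfrsf17 were among the markers below the bound in all groups. Of 9 markers of natural killer and cytotoxic cells, 6 fell and 0 rose in Eze relative to Th17, and 5 rose and 0 fell in Rsv. From Th0 to Th17, 4 rose and 2 fell. Their sums were 574 to 625 over the Th0 arrays, 906 to 959 over the Th17 arrays, 345 to 405 with ezetimibe and 914 to 1149 with rosuvastatin. Both CD8 T cell markers were higher in Rsv than in Th17 (median 0.98), with sums of 329 to 429 against 202 to 207, while 0 rose and 1 fell in Eze (sums 154 to 177). In Th0 they summed to 141 to 167, and 1 rose from Th0 to Th17. Of 10 myeloid markers, 1 rose and 3 fell in Eze and 6 rose and 1 fell in Rsv, with sums of 324 to 352 over the Th0 arrays, 425 to 477 over the Th17 arrays, 264 to 284 with ezetimibe and 337 to 442 with rosuvastatin. The CD4 T cell markers summed to 6132 to 6353 over the Th0 arrays and 7856 to 8253 over the Th17 arrays. They summed to 6126 to 6536 with ezetimibe, where 5 of 8 fell and 1 rose against Th17, and to 6912 to 7443 with rosuvastatin, where 4 fell and 1 rose. The separation of exonic from intronic control rows (AUC), which tracks RNA and labelling quality, was 0.890 to 0.894 in Eze and 0.870 to 0.881 in the other arrays. The part of these markers and of this quality measure in the results was not tested.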

How the data were processed

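RNA of 16 samples was measured on gene arrays. The deposited values are log2 signals, which the authors had preprocessed and quantile normalized. The methods call the first step the range migration algorithm and speak of sequencing, while the labels describe biotin-labelled arrays. The values were used as deposited. The 2 deposited tables held the same values (0 differed), and 0 columns belonged to other samples. Main rows with a gene symbol were kept, under the first symbol where several were listed. Of 657 genes with several rows the brightest row was used, which left 30920 genes.

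A model with 1 mean per group over all 16 arrays was fitted with limma 3.58.1 in R 4.3.3 (lmFit and eBayes). P-values were two-sided and adjusted (Benjamini-Hochberg) across the 30920 genes, with a threshold of 0.05. The script was tested on simulated data. The number of arrays limits the precision. The genes, the lists and the tests were chosen with earlier results of these data known. Values in every array are given for up to 4 genes per comparison with the largest difference among those called, in the 4 main comparisons, and for the 4 sensors. Genes outside the 30 are named from the lists, at most 3 per list in the comparison described, by size of difference. Alg12 was named after its value was seen.

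Same-numbered arrays of different groups did not deviate together (24 pairs, r = -0.123 to 0.166), so the numbers were not used as pairs. Alternatives were centring of arrays, the mean of all rows of a gene, a filter on background, a mean-variance trend, array weights, blocks, only the compared groups, the methods' Mann-Whitney test, a difference of at least 0.5, and leaving out each array. Promoter sequences are from RefSeq (GRCm38.p6) and were searched in Python 3.11.15.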

Additional observations from a re-analysis of the deposited data

Results flagged for a closer look

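In a group of 4 arrays, 1 array stood far from the other 3 by Dixon's test in 11 of 120 combinations of gene and group, where chance gives about 1 in 20. The lone arrays of Sdf2l1 (7.19, unnumbered Eze array), Hspa5 (7.97, unnumbered Rsv array), Pdia4 (6.39, Rsv array 2), Pdia3 (9.02, Eze array 1), Sel1l (7.92, Eze array 1) and Dnajc3 (7.53, Eze array 1) were low in the drug groups. In Th0, the lone arrays were Herpud1 (9.14), Calr (10.47) and Eif2ak3 (6.42), all the unnumbered array and all high, and Hsp90b1 (10.55, array 3), which was low. In Th17, it was Derl3 (3.64, array 3), which was high and below the background bound. No called difference of the 30 genes changed direction when any 1 array was left out.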

How the results depend on the processing

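No called difference of the 30 genes changed direction under any alternative. Of the called genes, 12 of 19 in Th17 against Th0, 14 of 19 in Eze against Th17, 13 of 17 in Rsv against Th17 and 4 of 9 in Eze against Rsv kept the call under every alternative that was fitted. In Eze against Th0 it was 1 of 8 and in Rsv against Th0 5 of 9. With genes above background alone (6015 genes, 22 of the 30), the medians were -0.528 in Th17 against Th0, 0.482 in Eze against Th17 and 0.413 in Rsv against Th17, with 2 genes higher in the first, 1 lower in the second and 3 higher in Rsv against Th0. After centring of each array, the medians were 0.427 in Eze against Th17, 0.148 in Rsv against Th17, 0.149 in Eze against Rsv and 0.049 in Eze against Th0, where 3 genes were lower. A mean-variance trend and array weights each gave 2 genes higher in Th17 against Th0 and 2 higher in Rsv against Th0.

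The exact, unadjusted Mann-Whitney test that the methods name, with an exact p of 0.0286 as the smallest it allows, gave 3 genes higher in Th17 against Th0, 6 lower in Eze against Rsv, 2 higher in Eze against Th0 and 2 higher in Rsv against Th0. With a log2 difference of at least 0.5 required as well, 0 were higher in Th17 against Th0, 1 lower in Rsv against Th17, 3 higher and 1 lower in Eze against Rsv, 0 lower in Eze against Th0 and 4 lower in Rsv against Th0. The split into numbered and unnumbered arrays was added after the data were seen. The numbered arrays gave a median of 0.300 in Rsv against Th17 and 2 genes higher in Eze against Th0. The single unnumbered arrays gave medians of 0.173 in Rsv against Th17, 0.114 in Eze against Rsv and -0.200 in Rsv against Th0. All called genes had the same direction in both sets of arrays. The replicate block left 18 genes lower and 1 higher in Th17 against Th0, and it ended 2 calls, Pdia3 in Eze against Th17 (adjusted p = 0.0606) and Xbp1 in Rsv against Th17 (adjusted p = 0.0641). Of 16 arrays, 6 correlated best with an array of their own number. Without each array in turn, the count of genes higher in Rsv against Th0 was 1 to 2, with 2 when the unnumbered Rsv array or Rsv array 1 was left out, and the other counts stayed within 1.5 times. Of the differences of single genes refitted in this way, 1400 kept their side of the threshold, 33 lost the call and 7 gained it. Why results changed was not tested, except that fewer genes are tested with the background filter. The 8 genes below the background bound in all groups limit what can be said of Ern1, Eif2ak3, Dnajb9, Manf, Syvn1, Derl2, Derl3 and Sec61b.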

Other observations

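In a list of 16 other folding enzymes and co-chaperones of the ER, 8 were higher in Eze than in Rsv and 0 lower, with a median of 0.31. Of all genes, 13.3% were higher and 15.2% lower. Ero1l, which encodes ERO1α, the oxidase that supplies disulfide bonds to the disulfide isomerases, had mean log2 signals of 11.50 in Th0, 11.11 in Th17 and 11.37 in Eze, and 9.21 in Rsv. It fell by 1.90 (SE 0.07) in Rsv against Th17 (adjusted p = 1.17e-12, n = 4 per group, limma). P4hb, the first member of the disulfide isomerase family, fell by 0.61 in the same comparison (adjusted p = 1.91e-05), and the BiP exchange factor gene Sil1 fell by 0.41 (adjusted p = 0.00315). Relative to Th17, 8 genes of this list were higher and 1 lower with ezetimibe, and 1 was higher and 3 lower with rosuvastatin. The shares over all genes were 11.2% and 10.5% with ezetimibe, and 13.6% and 12.4% with rosuvastatin. Fkbp11, an ER prolyl isomerase, was 0.88 higher in Eze than in Th17 (adjusted p = 0.000287).

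Creb3l2 encodes a membrane-bound transcription factor related to ATF6 that is cut in the Golgi. Its means were 6.83 in Th0, 7.58 in Th17, 6.39 in Eze and 5.61 in Rsv, and it fell by 1.19 in Eze against Th17 (adjusted p = 5.11e-09). It fell by 1.96 in Rsv against Th17 (adjusted p = 5.6e-12). In this list of 12 other sensors and processing enzymes, 2 were higher and 2 lower in Eze, and 0 were higher and 1 lower in Rsv. For so few genes, these counts were close to the shares over all genes.

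In a list of 16 other genes of ER-associated degradation, 5 were higher and 2 lower in Eze relative to Th17, with a median of 0.12, and 4 were higher and 2 lower in Rsv, with a median of 0.01. Vcp, the ATPase that pulls substrates out of the ER membrane, was 0.63 higher in Eze and 0.70 higher in Rsv than in Th17 (adjusted p = 2.12e-05 and 6.6e-06). Fam8a1, which encodes a partner of HRD1, fell by 0.83 in Rsv against Th17 (adjusted p = 2.17e-05).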
